A study of Mus musculus with 12 samples.

Results

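The collagen genes of mouse astrocyte cultures are described here: the protein-coding genes whose GENCODE M21 symbol is Col, a number, a and a number, each of which encodes 1 alpha chain of a collagen. There are 44 of them among 54356 genes with a transcript in the files, of which 21815 are protein-coding. They were grouped by the kind of collagen they make into 11 fibrillar, 6 basement membrane, 6 beaded and 21 other chains. The last were split into 9 fibril-associated, 3 short-chain, 4 transmembrane, 2 multiplexin and 3 remaining chains. Of the 44, 35 had enough reads to be tested. The 9 that did not were Col10a1 and Col19a1, with 0 reads in every library, and Col4a3, Col17a1, Col6a6, Col28a1, Col6a4, Col24a1 and Col13a1, with at most 23 reads over all 12 libraries.

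The study asked how gene expression switches when mouse astrocytes lose PTB, the RNA-binding protein encoded by Ptbp1, and are cultured towards neurons. RNA was sequenced from 6 groups of 2 libraries each, all labelled as astrocytes of strain C57BL/6. They were midbrain cultures with a hairpin against PTB (shPTB) after 4 weeks and after 2 weeks, midbrain mock cultures, and the same 3 groups from cortex. The shPTB cultures were kept in neuronal differentiation medium and the mock cultures in growth medium, so the hairpin and the medium changed together and cannot be told apart. No time is given for the mock cultures, and both times of a region share its 2 mock libraries. The labels do not say whether the 2 libraries of a group came from separate cultures or animals, so the p-values measure the spread between these libraries only. That spread was shared by all 6 groups but was wider in mock. Over named collagen genes, the median log2 difference between replicates was 0.54 and 0.49 in midbrain and cortex mock. In the shPTB groups it was 0.09 to 0.19. The shared spread can thus be too narrow for comparisons with mock and too wide for those among shPTB groups.

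A collagen is a trimer of alpha chains wound into a triple helix, made in the endoplasmic reticulum, secreted and assembled outside the cell. Fibrillar collagens form the banded fibrils of connective tissue, the type IV chains form the sheet of the basement membrane, type VI forms beaded microfibrils, and the fibril-associated collagens sit on the surface of fibrils. In the brain most fibrillar collagen lies in the meninges and around vessels, and astrocytes contribute to the basement membrane at the vessel wall.

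The libraries held 6022098 to 9527843 reads in the 8 shPTB libraries and 10197614 to 11385761 reads in the 4 mock libraries. Mitochondrial genes took 36.4 to 48.3% of reads in shPTB libraries and 16.9 to 22.7% in mock libraries. Levels are given as CPM, read counts scaled to library size by TMM, whose factors were 0.680 to 0.953 in shPTB libraries and 1.22 to 1.69 in mock libraries. Scaling to total reads instead lowers every change against mock. The median log2 fold change over all 14607 genes tested is then -1.01 and -0.74 in midbrain at 4 and 2 weeks and -1.21 and -0.85 in cortex. With TMM these medians are -0.15, -0.07, -0.12 and -0.11, and the changes below are on the TMM scale. The targeted gene, Ptbp1, had 169 and 155 CPM at 4 weeks, 105 and 90.8 CPM at 2 weeks and 208 and 249.98 CPM in mock in midbrain. Ptbp1 in cortex had 89.2 and 90.5 CPM at 4 weeks, 73.01 and 73.5 CPM at 2 weeks and 173 and 251 CPM in mock. It was lower in both midbrain groups and both cortex groups by 0.50, 1.22, 1.24 and 1.53 on the log2 scale, of which the first did not pass the test (adjusted p = 0.0744 in edgeR's quasi-likelihood test).

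The astrocyte markers were present in every library, with 8 genes summing to 7068 to 9767 CPM in midbrain shPTB, 10835 to 13758 CPM in midbrain mock, 13362 to 14051 CPM in cortex shPTB and 12339 to 20707 CPM in cortex mock libraries. Gfap made up most of these sums, with means of 8262 and 6012 CPM in midbrain at 4 and 2 weeks and 11095 CPM in midbrain mock. Of the 8, 2 rose and 4 fell in midbrain at 4 weeks and 1 rose and 2 fell at 2 weeks, while in cortex 3 rose and 4 fell at 4 weeks and 3 rose and 2 fell at 2 weeks. Aldh1l1 averaged 29.98 and 39.9 CPM in midbrain at 4 and 2 weeks and 139 CPM in midbrain mock. Of all genes tested 18.7 and 15.9% rose and 20.4 and 14.7% fell in midbrain at 4 and 2 weeks, and 18.5 and 17.5% rose and 20.9 and 17.6% fell in cortex. The markers of other collagen-making cells differed between groups. The 10 fibroblast and meningeal markers summed to 807 to 849 CPM at 4 weeks, 639.6 to 639.9 CPM at 2 weeks and 177 to 226 CPM in mock midbrain libraries, and to 422 to 432, 425 to 440.4 and 247 to 349 CPM in cortex. Of them 6 rose and 2 fell in midbrain at each time, 4 rose and 1 fell in cortex at 4 weeks, and 4 rose and 3 fell in cortex at 2 weeks. The 8 pericyte and smooth muscle markers, of which 6 could be tested, summed to 52.2 to 56.4, 70.3 to 73.6 and 728 to 928 CPM in midbrain, and to 95.9 to 97.4, 69.8 to 72.3 and 311 to 389.8 CPM in cortex. Acta2, smooth muscle actin, carried most of this fall, with means of 8.56 and 9.61 CPM in midbrain at 4 and 2 weeks and 766 CPM in mock. Among the 6 tested, 3 rose and 2 fell in midbrain at each time and in cortex at 2 weeks, and 1 rose and 2 fell in cortex at 4 weeks. Their median log2 fold change was 0.89 and 1.06 in midbrain and -1.93 and 0.37 in cortex. The 7 endothelial markers summed to at most 23.4 CPM in any library, with Tek, an endothelial receptor, at 0 in all. Of 6 microglial markers 5 fell in every comparison with mock, with medians of -6.68 and -5.14 in midbrain and -5.77 and -4.28 in cortex, and all 6 proliferation markers fell. Of 6 tested neuronal markers 4 and 2 fell in midbrain at 4 and 2 weeks, with none called higher, 2 fell in cortex at 4 weeks, and 3 rose and 2 fell in cortex at 2 weeks. Of 5 tested oligodendrocyte and precursor markers 2 and 3 rose in midbrain and 4 rose at each time in cortex, with 1 lower in every comparison. Of 5 tested ependymal and choroid plexus markers 3 fell in every comparison, while 2 rose in midbrain and 1 in cortex. The part of any of these cells in the collagen results was not tested. In such bulk libraries fewer cells of a type and less RNA per cell cannot be told apart.

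Collagen RNA was lower in the shPTB cultures of both regions, with lower levels of the main chains of types I, V, VI and VIII, while a few chains, Col11a2 among them, rose. Summed over all 44 genes, midbrain cultures had 681 ± 9.19 CPM at 4 weeks, 748 ± 17.5 CPM at 2 weeks and 2359 ± 353 CPM in mock (SD, n = 2 each). Cortex cultures had 450.1 ± 3.76 CPM at 4 weeks, 446 ± 15.98 CPM at 2 weeks and 846 ± 131 CPM in mock. The shPTB libraries all lay below the mock libraries of their region, 3.46-fold and 3.15-fold in midbrain at 4 and 2 weeks and 1.88-fold and 1.90-fold in cortex. The fibrillar chains summed to 429 ± 6.31, 447 ± 9.69 and 1551 ± 291 CPM in midbrain and to 263 ± 6.15, 247 ± 5.07 and 606 ± 99.2 CPM in cortex, in the same order of groups. The beaded chains summed to 35.4 ± 5.49, 51.4 ± 2.88 and 405 ± 37.5 CPM in midbrain and to 3.19 ± 0.11, 13.8 ± 1.80 and 39.1 ± 4.39 CPM in cortex. The basement membrane chains summed to 97.2 ± 4.58, 125 ± 2.21 and 244 ± 29.3 CPM in midbrain and to 80.4 ± 2.84, 110.4 ± 0.18 and 135 ± 27.2 CPM in cortex. The other chains summed to 119 ± 1.96, 126 ± 2.74 and 158 ± 5.23 CPM in midbrain, and to 104 ± 0.34, 74.8 ± 8.93 and 65.6 ± 0.36 CPM in cortex. There the shPTB libraries lay above mock on the TMM scale only. As a share of all reads these chains were lower in cortex shPTB, with means of 0.00707 and 0.00650% at 4 and 2 weeks and 0.00954% in mock.

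In edgeR's quasi-likelihood test with Benjamini-Hochberg adjustment over 14607 genes, 18 of the 35 tested collagen genes were lower and 7 higher in midbrain at 4 weeks, where 20.4% of all genes tested were lower and 18.7% higher. At 2 weeks in midbrain 17 were lower and 7 higher, beside 14.7% and 15.9% of all genes. In cortex 21 were lower and 6 higher at 4 weeks, beside 20.9% and 18.5%, and 15 were lower and 6 higher at 2 weeks, beside 17.6% and 17.5%. The share of collagen genes called lower was 51.4, 48.6, 60 and 42.9% in the 4 comparisons, above that of all genes, while the share called higher, 20, 20, 17.1 and 17.1%, was close to it. Scaled to total reads, 24 and 21 collagen genes were called lower and 3 and 4 higher in midbrain at 4 and 2 weeks, and 28 and 20 lower and 4 and 6 higher in cortex. With that scaling 49.6 and 38.8% of all genes tested were lower and 7.46 and 7.99% higher in midbrain, and 57.1 and 41.8% lower and 5.85 and 8.27% higher in cortex. The collagen shares called lower were then 68.6 and 60% in midbrain and 80 and 57.1% in cortex, nearer those of all genes. The median log2 fold change of the tested collagen genes was -1.32 and -1.15 in midbrain at 4 and 2 weeks and -1.60 and -0.63 in cortex. With genes at 0 reads in a group set at their bound, the third of these medians was -1.51. A gene passes the filter on low counts through the groups where it is high, so these counts describe the 35 genes and not all 44.

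**Figure D1:**
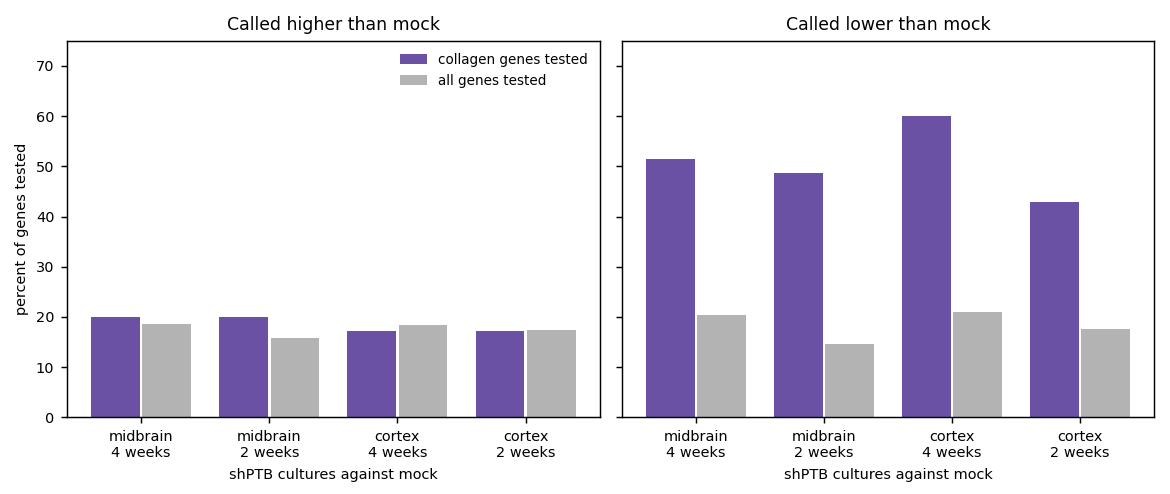
Bars give the percent of tested genes called higher (left) or lower (right) than mock in each shPTB group, for the 35 tested collagen genes (purple) and for all 14607 genes tested (grey). The collagen share is above the grey bar on the right in all 4 comparisons, by the widest margin in cortex at 4 weeks with 60% against 20.9%, and close to it on the left.

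**Figure D2:**
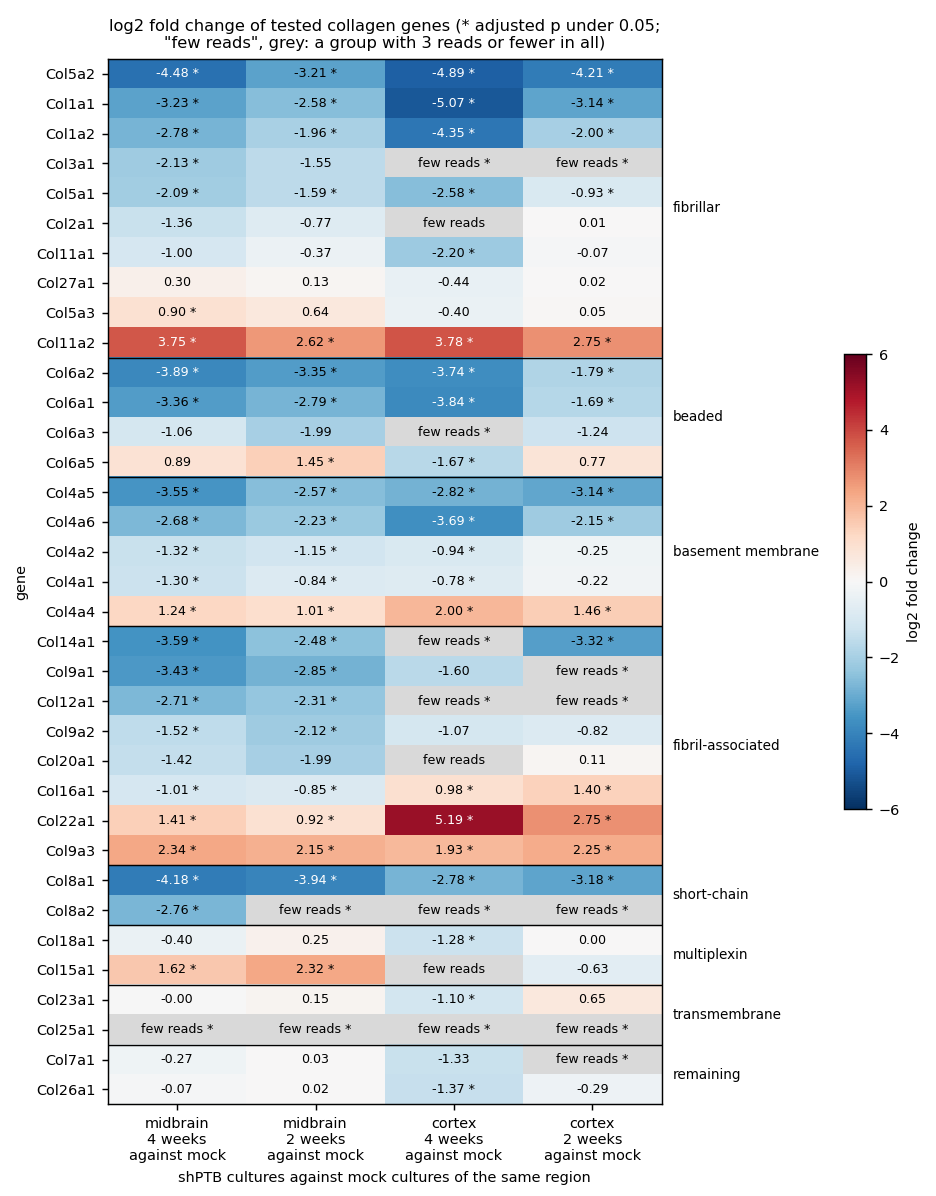
Each cell gives the log2 fold change of a tested collagen gene (rows, grouped by class) in shPTB cultures against mock cultures of the same region (columns), on a colour scale from blue (lower) to red (higher), with an asterisk where adjusted p is under 0.05 and grey where a group had 3 reads or fewer in all. Col1a1, Col1a2, Col5a2, Col6a1 and Col6a2 are blue and Col11a2 is red in every column, and Col16a1 changes colour between the regions.

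Type I collagen, the main collagen of skin, bone and meninges, is in its usual form a trimer of Col1a1 and Col1a2 chains, and both genes fell in every comparison with mock. Col1a1 (chromosome 11, 94936224 to 94953042, plus strand, GRCm38) had 104 and 102 CPM at 4 weeks, 158 and 167 CPM at 2 weeks and 793 and 1147 CPM in mock in midbrain. In cortex it had 9.71 and 11.7 CPM at 4 weeks, 35.9 and 45.3 CPM at 2 weeks and 306 and 413 CPM in mock. All 8 shPTB libraries lay below the mock libraries of their region, with the cortex 4-week libraries lowest. The log2 fold change was -3.23 ± 0.25, adjusted p = 4.60e-06 in midbrain at 4 weeks and -2.58 ± 0.24, adjusted p = 2.36e-05 at 2 weeks (edgeR, ± SE). The cortex change was -5.07 ± 0.28, adjusted p = 5.69e-07 at 4 weeks and -3.14 ± 0.25, adjusted p = 6.97e-06 at 2 weeks.

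Col1a2 (chromosome 6, 4504814 to 4541544, plus strand) had 48.9 and 53.3 CPM at 4 weeks, 88.3 and 92.6 CPM at 2 weeks and 370.3 and 334 CPM in mock in midbrain. Col1a2 in cortex had 5.68 and 7.69 CPM at 4 weeks, 33.9 and 34.1 CPM at 2 weeks and 136 and 136 CPM in mock. The groups did not overlap in either region. It fell by 2.78 and 1.96 on the log2 scale in midbrain at 4 and 2 weeks (edgeR adjusted p = 1.43e-06 and 1.68e-05), and by 4.35 and 1.999 in cortex (adjusted p = 2.71e-07 and 1.62e-05). The calls of both type I chains against mock passed in every alternative that was run. Within a library, TPM sets the chains side by side per length: the ratio of Col1a1 to Col1a2 was 1.33 and 1.201 in the midbrain 4-week libraries, 1.26 and 1.28 in the midbrain 2-week libraries and 1.79 and 2.29 in the midbrain mock libraries. The cortex ratios were 1.04 and 0.93 at 4 weeks, 0.74 and 0.90 at 2 weeks and 1.86 and 2.10 in mock. In TPM every shPTB library thus had less Col1a1 relative to Col1a2 than any mock library. By CPM the closest libraries hardly differed. Col1a1 and Col1a2 had 104 and 48.9 CPM in midbrain 4-week library 1 and 793 and 370.3 CPM in midbrain mock library 1.

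Type V collagen regulates the start and width of type I fibrils, and its 3 chains moved apart. Col5a1 had 26.8 and 27.3 CPM at 4 weeks, 38.2 and 37.96 CPM at 2 weeks and 76.9 and 153 CPM in mock in midbrain. Col5a1 in cortex had 5.68 and 5.19 CPM at 4 weeks, 14.6 and 19.5 CPM at 2 weeks and 26.6 and 38.6 CPM in mock. It fell in all 4 comparisons, by 2.09 and 1.59 on the log2 scale in midbrain at 4 and 2 weeks and by 2.58 and 0.93 in cortex (edgeR adjusted p = 3.92e-04, 0.00243, 1.93e-04 and 0.0376). The last of these calls was close to the threshold: it did not pass without any 1 of the 8 shPTB libraries or cortex mock library 2, left out one at a time (adjusted p = 0.0549 to 0.212), or on coding transcripts only (-0.90, adjusted p = 0.0559) and with only the compared groups in the fit (-0.94, adjusted p = 0.0612). Col5a2, the chain that joins 2 Col5a1 chains, fell further, with 1.24 and 1.61 CPM at 4 weeks, 2.94 and 3.97 CPM at 2 weeks and 45.4 and 18.7 CPM in mock in midbrain. Col5a2 in cortex had 0.733 and 0 CPM at 4 weeks, 0.562 and 0.649 CPM at 2 weeks and 15.7 and 7.001 CPM in mock. Its 2 mock libraries differed more than 2-fold in each region, and still all shPTB libraries lay below both. The log2 fold changes were -4.48 ± 0.61 and -3.21 ± 0.54 in midbrain and -4.89 ± 0.82 and -4.21 ± 0.74 in cortex (edgeR adjusted p = 2.44e-04, 0.00117, 7.93e-04 and 0.00135).

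The third chain, Col5a3, which replaces another chain in some type V trimers, did not fall on the TMM scale. It had 37.9 and 35.1 CPM at 4 weeks, 30.2 and 30.8 CPM at 2 weeks and 14.2 and 25.04 CPM in mock in midbrain. Col5a3 in cortex had 9.52 and 9.99 CPM at 4 weeks, 14.4 and 12.3 CPM at 2 weeks and 10.7 and 15.1 CPM in mock. In midbrain the groups did not overlap, and the log2 fold change passed at 4 weeks (0.90 ± 0.26, adjusted p = 0.019, edgeR) but not at 2 weeks (0.64 ± 0.26, adjusted p = 0.084). The 4-week call did not pass without midbrain 4-week library 1 (adjusted p = 0.0959), midbrain 4-week library 2 (adjusted p = 0.0641) or midbrain mock library 1 (adjusted p = 0.102), or with scaling to total reads (0.06, adjusted p = 0.819), with the length offset (-0.05, adjusted p = 0.859) and with only the compared groups in the fit (0.89, adjusted p = 0.0756). In cortex the log2 fold changes were -0.40 and 0.05, and neither passed. With scaling to total reads the cortex 2-week change was -0.65. By deposited TPM Col5a3 was below mock in both regions. Its means were 1.15 and 1.14 at 4 and 2 weeks against 2.24 in midbrain, and 0.20 and 0.50 against 1.34 in cortex.

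Outside types I, V and XI the fibrillar chains were low. Col3a1, the partner of type I in soft tissue and vessel walls, had 0.553 and 0.268 CPM at 4 weeks, 0.566 and 0.662 CPM at 2 weeks and 2.22 and 1.41 CPM in mock in midbrain. Col3a1 in cortex had 0 and 0 CPM at 4 weeks, 0 and 0.325 CPM at 2 weeks and 2.85 and 1.83 CPM in mock. With 0 reads in the cortex 4-week group against 72 in cortex mock, it was at least 8.59-fold lower, computed against 3 reads over the group. With 2 reads in the cortex 2-week group it was lower by a ratio of 13.9 (95% interval 3.71 to 117) by counting. It fell in midbrain at 4 weeks (-2.13 ± 0.69, adjusted p = 0.0339, edgeR), and did not pass at 2 weeks (-1.55 ± 0.62, adjusted p = 0.0858). The midbrain call did not pass without either midbrain 4-week or midbrain 2-week library, midbrain mock library 1 or mock library 1 of both regions, left out one at a time (adjusted p = 0.0507 to 0.191), or on coding transcripts only (-2.01, adjusted p = 0.0591) and by DESeq2 (-2.16, adjusted p = 0.0687). Col2a1, the cartilage chain, stayed at or under 2.82 CPM in every library, and Col27a1, a fibrillar chain of cartilage and developing tissue, lay between 3.09 and 6.52 CPM, and neither passed in any comparison with mock.

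Type XI collagen, which nucleates fibrils in cartilage and is close in sequence to type V, has a chain that rose and a chain that did not. Col11a2 rose in all 4 comparisons, while Col11a1 fell in cortex at 4 weeks and did not pass in the other 3. The sequences just before the transcription starts of both genes, and of Col5a1, which can trimerize with Col11a1, are shown because Col11a2 rose where Col5a1 fell. They are from RefSeq on GRCm38.p6, 250 bases before the start, with capitals for matches on either strand to the motif CCAAT, to the motif GGGCGG and to the motif TATAAA.
Col11a2, chr17:34038888-34039137, plus strand: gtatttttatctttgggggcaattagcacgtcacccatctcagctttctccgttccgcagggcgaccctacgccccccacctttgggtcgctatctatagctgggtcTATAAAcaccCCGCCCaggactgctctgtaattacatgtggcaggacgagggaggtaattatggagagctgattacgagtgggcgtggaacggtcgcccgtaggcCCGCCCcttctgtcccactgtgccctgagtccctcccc
Col11a1, chr3:114030290-114030539, plus strand: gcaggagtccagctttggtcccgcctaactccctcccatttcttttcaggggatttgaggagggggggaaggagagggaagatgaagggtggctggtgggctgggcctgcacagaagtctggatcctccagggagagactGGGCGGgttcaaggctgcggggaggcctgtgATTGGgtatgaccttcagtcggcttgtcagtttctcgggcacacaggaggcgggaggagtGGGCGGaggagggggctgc
Col5a1, chr2:27886175-27886424, plus strand: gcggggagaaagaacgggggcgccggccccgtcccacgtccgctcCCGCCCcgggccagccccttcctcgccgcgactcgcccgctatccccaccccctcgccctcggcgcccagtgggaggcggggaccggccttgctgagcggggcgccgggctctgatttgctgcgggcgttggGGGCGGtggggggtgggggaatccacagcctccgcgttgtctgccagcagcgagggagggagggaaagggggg

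The Col11a2 window holds a TATAAA 143 bases before the start and GGGCGG on the opposite strand at 133 and 38 bases. The Col11a1 window holds GGGCGG at 110 and 19 bases and CCAAT on the opposite strand at 79 bases. The Col5a1 window holds GGGCGG at 73 bases and on the opposite strand at 205 bases. Over the table's 32851 windows, 12.4% hold TATAAA, 32.7% hold GGGCGG and 33.8% hold CCAAT. Of the 44 collagen genes 35 have a window, of which 5 hold TATAAA, 21 GGGCGG and 13 CCAAT. The GENCODE M21 start of Col11a2 lies 299 bases downstream of the RefSeq start, so the window ends short of the GENCODE start, and the starts agree to the base for Col11a1 and Col5a1. A match to such letters is a description and not a known binding site.

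Col11a2 had 188 and 178 CPM at 4 weeks, 83.3 and 84.97 CPM at 2 weeks and 9.71 and 17.7 CPM in mock in midbrain. In cortex it had 216 and 223 CPM at 4 weeks, 111 and 104 CPM at 2 weeks and 15.3 and 16.7 CPM in mock. Every 4-week library was above every 2-week library of its region, and these above every mock library. The log2 fold change was 3.75 ± 0.26, adjusted p = 2.18e-06 in midbrain at 4 weeks and 2.62 ± 0.25, adjusted p = 2.51e-05 at 2 weeks (edgeR). The change in cortex was 3.78 ± 0.26, adjusted p = 1.84e-06 at 4 weeks and 2.75 ± 0.25, adjusted p = 1.83e-05 at 2 weeks. At 4 weeks this is 13.4-fold and 13.7-fold higher than mock, and these calls passed in every alternative run.

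Col11a1 had 18.9 and 20.8 CPM at 4 weeks, 30.3 and 31.4 CPM at 2 weeks and 27.6 and 52.1 CPM in mock in midbrain. Col11a1 in cortex had 7.51 and 5.19 CPM at 4 weeks, 27.5 and 28.4 CPM at 2 weeks and 17.9 and 40.8 CPM in mock. The 2-week libraries of both regions lay between the 2 mock libraries of their region, and the 4-week libraries lay below both. The log2 fold change was -1.004 ± 0.37, adjusted p = 0.0525 in midbrain at 4 weeks and -0.37 ± 0.36, adjusted p = 0.471 at 2 weeks, neither past the threshold. In cortex Col11a1 fell at 4 weeks (-2.199 ± 0.42, adjusted p = 0.00178, edgeR), and did not pass at 2 weeks (-0.07 ± 0.37, adjusted p = 0.907). The TPM ratio of Col11a1 to Col11a2 was 0.17 and 0.18 in the midbrain 4-week libraries, 0.70 and 0.64 in the midbrain 2-week libraries and 6.16 and 5.21 in the midbrain mock libraries. The cortex ratios were 0.08 and 0.04 at 4 weeks, 0.39 and 0.41 at 2 weeks and 2.32 and 4.00 in mock. In mock, then, Col11a1 was the more abundant chain per length, and in shPTB cultures Col11a2 was. TPM depends on which transcript Salmon gave the reads to. It divides by the length of a transcript, while these reads lie towards its 3′ end, and the effective length is set in each library. The ratio is thus not a count of chains, and processing can move it between libraries. By CPM, too, Col11a1 was above Col11a2 in every mock library and below it in every shPTB library.

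**Figure D3:**
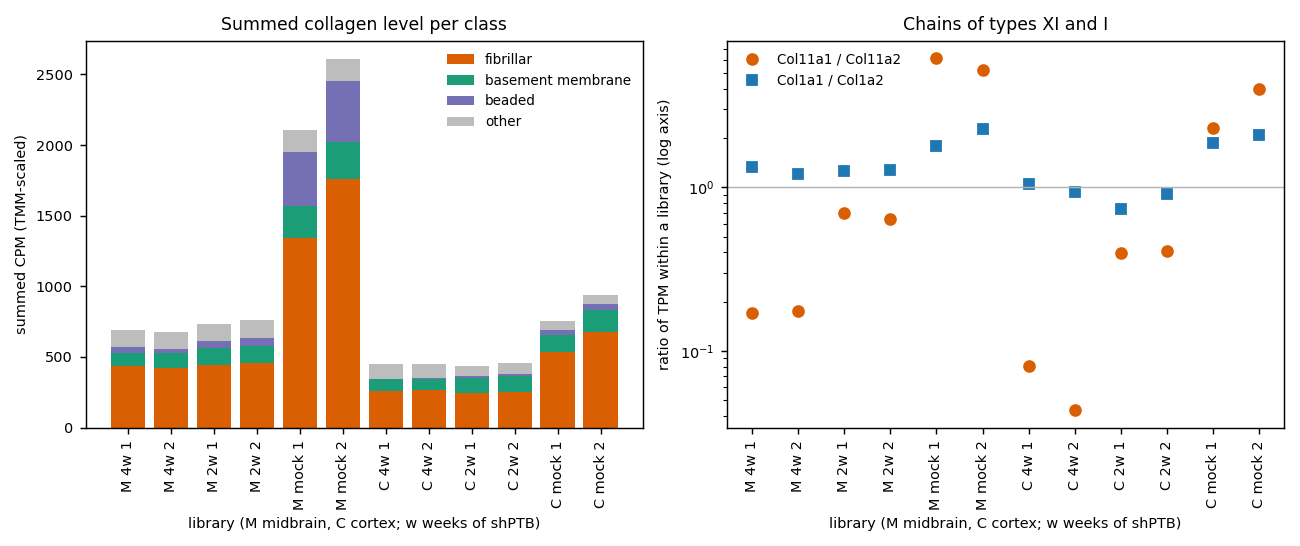
Left, summed CPM of the collagen genes of each class (stacked) in every library. Right, the ratio of Col11a1 to Col11a2 (orange) and of Col1a1 to Col1a2 (blue) in TPM within each library, on a log axis with a line at 1. The midbrain mock libraries stand highest on the left, at 2359 ± 353 CPM on average, and the Col11a1 to Col11a2 ratio is above 1 in the 4 mock libraries and below 1 in the 8 shPTB libraries.

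The beaded collagen of type VI, which forms microfibrils around cells, fell in both regions. Col6a1 had 15.5 and 12.1 CPM at 4 weeks, 19.5 and 21.3 CPM at 2 weeks and 138 and 144 CPM in mock in midbrain. Col6a1 in cortex had 1.28 and 0.961 CPM at 4 weeks, 4.49 and 5.52 CPM at 2 weeks and 16.6 and 15.9 CPM in mock. The 8 shPTB libraries lay below the mock libraries of their region. Col6a2, its partner chain, had 19.8 and 15.5 CPM at 4 weeks, 24.8 and 26.5 CPM at 2 weeks and 237 and 285 CPM in mock in midbrain. Col6a2 in cortex had 1.28 and 1.73 CPM at 4 weeks, 5.62 and 6.004 CPM at 2 weeks and 16.3 and 24.1 CPM in mock. No shPTB library reached a mock library of its region for either chain. Col6a1 changed by -3.36 ± 0.20 and -2.79 ± 0.19 (log2 fold change) in midbrain at 4 and 2 weeks and by -3.84 ± 0.26 and -1.69 ± 0.21 in cortex (edgeR adjusted p = 6.68e-07, 2.16e-06, 1.84e-06 and 1.36e-04). Col6a2 changed by -3.89 ± 0.24 and -3.35 ± 0.23 in midbrain and by -3.74 ± 0.30 and -1.79 ± 0.25 in cortex (adjusted p = 9.84e-07, 2.65e-06, 5.65e-06 and 2.94e-04). All of these calls passed in every alternative.

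The third classical chain, Col6a3, was near the detection limit, with at most 1.27 CPM in any library. It passed only in cortex at 4 weeks, with 1 read against 30 reads in mock, lower by a ratio of 10.7 (95% interval 1.79 to 438) by counting. That call did not pass without cortex 4-week library 1 (adjusted p = 0.176), cortex mock library 2 (adjusted p = 0.0766) or mock library 2 of both regions (adjusted p = 0.0698), or with only the compared groups in the fit (-3.34, adjusted p = 0.0678) and by DESeq2 (-3.48, adjusted p = 0.0965). Col6a5, a later-described chain of the family, went the other way in midbrain: it had 3.73 and 3.08 CPM at 4 weeks, 4.87 and 5.19 CPM at 2 weeks and 2.17 and 1.48 CPM in mock there. Col6a5 in cortex had 0.549 and 0.384 CPM at 4 weeks, 2.25 and 2.92 CPM at 2 weeks and 2.09 and 0.875 CPM in mock. It rose in midbrain at 2 weeks (1.45 ± 0.40, adjusted p = 0.0174, edgeR) and fell in cortex at 4 weeks (-1.67 ± 0.60, adjusted p = 0.0465). Both calls were weak: the first did not pass without midbrain 2-week library 1 (adjusted p = 0.0714), midbrain 2-week library 2 (adjusted p = 0.088) or midbrain mock library 2 (adjusted p = 0.0668), or with scaling to total reads (0.77, adjusted p = 0.217) and with the length offset (0.77, adjusted p = 0.262). The second did not pass without any 1 of the 8 shPTB libraries, cortex mock library 1 or mock library 1 of both regions, left out one at a time (adjusted p = 0.0587 to 0.371), or with only the compared groups in the fit (-1.71, adjusted p = 0.147) and by DESeq2 (-1.697, adjusted p = 0.102).

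In the basement membrane class the pair Col4a1 and Col4a2, which make the common type IV trimer and lie head to head on chromosome 8, fell in midbrain and less clearly in cortex. Col4a1 had 61.2 and 65.6 CPM at 4 weeks, 85.3 and 88.4 CPM at 2 weeks and 133 and 179 CPM in mock in midbrain. Col4a1 in cortex had 50.9 and 45.7 CPM at 4 weeks, 71.5 and 71.4 CPM at 2 weeks and 65.5 and 101 CPM in mock. Its midbrain groups did not overlap, while in cortex only the 4-week libraries lay below mock. Col4a2 had 25.1 and 25.2 CPM at 4 weeks, 28.6 and 28.1 CPM at 2 weeks and 58.3 and 67.9 CPM in mock in midbrain. Col4a2 in cortex had 15.9 and 15.4 CPM at 4 weeks, 24.9 and 25.6 CPM at 2 weeks and 23.8 and 36.3 CPM in mock. Col4a2 showed the same order, with the cortex 2-week libraries within the range of cortex mock. Col4a2 changed by -1.32 ± 0.21, adjusted p = 5.77e-04 and -1.15 ± 0.20, adjusted p = 0.00174 in midbrain at 4 and 2 weeks (log2, edgeR), by -0.94 ± 0.21, adjusted p = 0.00532 in cortex at 4 weeks, and by -0.25 ± 0.21, adjusted p = 0.382 in cortex at 2 weeks. Col4a1 changed by -1.297 ± 0.22, adjusted p = 0.00111 and -0.84 ± 0.22, adjusted p = 0.0147 in midbrain, by -0.78 ± 0.22, adjusted p = 0.0176 in cortex at 4 weeks and by -0.22 ± 0.22, adjusted p = 0.475 in cortex at 2 weeks.

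Of the Col4a1 reads 40.0% went to a coding transcript of 1170 bases and 57.9% to one marked for nonsense-mediated decay. The main fit sums reads over transcripts, while the length offset and the setting with coding transcripts only depend on this sharing. In midbrain at 4 weeks the call did not pass with the length offset (-0.71, adjusted p = 0.31) and on coding transcripts only (-0.48, adjusted p = 0.364). At 2 weeks it did not pass without midbrain 2-week library 1 (adjusted p = 0.0969), midbrain 2-week library 2 (adjusted p = 0.0786) or midbrain mock library 2 (adjusted p = 0.0618), or with the length offset (-0.59, adjusted p = 0.412), on coding transcripts only (-0.05, adjusted p = 0.935) and with only the compared groups in the fit (-0.84, adjusted p = 0.0566). In cortex at 4 weeks it did not pass without cortex 4-week library 1 (adjusted p = 0.0653), cortex 4-week library 2 (adjusted p = 0.115) or cortex mock library 2 (adjusted p = 0.097), or with the length offset (0.24, adjusted p = 0.743), on coding transcripts only (-0.09, adjusted p = 0.889) and with only the compared groups in the fit (-0.82, adjusted p = 0.0752). The Col4a2 calls against mock passed in every alternative.

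The minor type IV chains also moved apart. Col4a5, which joins Col4a3 and Col4a4 in kidney and other specialised basement membranes, had 1.24 and 0 CPM at 4 weeks, 0.679 and 1.77 CPM at 2 weeks and 9.22 and 5.46 CPM in mock in midbrain. Col4a5 in cortex had 0.366 and 0.961 CPM at 4 weeks, 0.749 and 0.325 CPM at 2 weeks and 4.59 and 4.85 CPM in mock. All 8 shPTB libraries were below the mock libraries of their region. Col4a6, its neighbour on the X chromosome and a chain of smooth muscle basement membrane, had 1.66 and 3.21 CPM at 4 weeks, 3.06 and 3.64 CPM at 2 weeks and 21.2 and 10.1 CPM in mock in midbrain. Col4a6 in cortex had 0.366 and 1.73 CPM at 4 weeks, 2.81 and 3.25 CPM at 2 weeks and 18.8 and 8.12 CPM in mock. It too lay below mock in every shPTB library. Col4a5 changed by -3.55 ± 0.77 and -2.57 ± 0.67 in midbrain and -2.82 ± 0.83 and -3.14 ± 0.85 in cortex (log2, edgeR adjusted p = 0.0043, 0.0146, 0.0192 and 0.0147). Col4a6 changed by -2.68 ± 0.55 and -2.23 ± 0.52 in midbrain and -3.69 ± 0.66 and -2.15 ± 0.55 in cortex (adjusted p = 0.0032, 0.00817, 0.00121 and 0.0115). Apart from the midbrain 4-week calls of both and the cortex 4-week call of Col4a6, these calls were lost with 1 library left out. Col4a5 did not pass in midbrain at 2 weeks without midbrain 2-week library 1 (adjusted p = 0.13) or midbrain mock library 1 (adjusted p = 0.0568). In cortex it did not pass at 4 weeks without cortex 4-week library 1 (adjusted p = 0.142) or cortex 4-week library 2 (adjusted p = 0.0592), nor at 2 weeks without cortex 2-week library 1 (adjusted p = 0.0581) or cortex 2-week library 2 (adjusted p = 0.124). Col4a6 did not pass in midbrain at 2 weeks without midbrain 2-week library 1 (adjusted p = 0.0736) or midbrain 2-week library 2 (adjusted p = 0.0546), nor in cortex at 2 weeks without cortex 2-week library 1 (adjusted p = 0.0809), cortex 2-week library 2 (adjusted p = 0.0703) or cortex mock library 1 (adjusted p = 0.0709).

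Col4a4 rose. It had 4.697 and 6.43 CPM at 4 weeks, 5.32 and 4.19 CPM at 2 weeks and 2.28 and 2.44 CPM in mock in midbrain. Col4a4 in cortex had 14.8 and 14.6 CPM at 4 weeks, 10.3 and 9.899 CPM at 2 weeks and 3.02 and 4.38 CPM in mock, with no overlap between shPTB and mock libraries. The log2 fold change was 2.000 ± 0.26, adjusted p = 1.61e-04 in cortex at 4 weeks and 1.46 ± 0.26, adjusted p = 0.00164 at 2 weeks (edgeR). In midbrain it was 1.24 ± 0.27, adjusted p = 0.00487 at 4 weeks and 1.01 ± 0.27, adjusted p = 0.0168 at 2 weeks. The midbrain calls were weaker: at 4 weeks the call did not pass without midbrain 4-week library 2 (adjusted p = 0.0586), or with scaling to total reads (0.37, adjusted p = 0.254) and with the length offset (0.59, adjusted p = 0.104). At 2 weeks it did not pass without midbrain 2-week library 1 (adjusted p = 0.13) or midbrain mock library 1 (adjusted p = 0.0708), or with scaling to total reads (0.34, adjusted p = 0.311), with the length offset (0.38, adjusted p = 0.298) and with only the compared groups in the fit (1.01, adjusted p = 0.0778). Col4a3, the third chain of the Col4a3, Col4a4 and Col4a5 trimer, had 1 read in all 12 libraries.

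Among the fibril-associated chains, Col14a1 and Col12a1, which coat the surface of type I fibrils, fell with type I. Col14a1 had 0.967 and 1.74 CPM at 4 weeks, 3.06 and 2.87 CPM at 2 weeks and 12.6 and 20.5 CPM in mock in midbrain. Col14a1 in cortex had 0.366 and 0.192 CPM at 4 weeks, 0.562 and 1.298 CPM at 2 weeks and 6.45 and 12.8 CPM in mock. Every shPTB library was below every mock library of its region. It changed by -3.59 ± 0.46, adjusted p = 1.69e-04 and -2.48 ± 0.41, adjusted p = 0.00112 in midbrain at 4 and 2 weeks (log2, edgeR) and by -3.32 ± 0.52, adjusted p = 6.27e-04 in cortex at 2 weeks. In cortex at 4 weeks 3 reads stood against 272 in mock, lower by a ratio of 32.5 (95% interval 10.99 to 158) by counting. Col12a1 had 1.24 and 1.21 CPM at 4 weeks, 1.58 and 1.66 CPM at 2 weeks and 9.11 and 7.06 CPM in mock in midbrain. Col12a1 in cortex had 0.183 and 0 CPM at 4 weeks, 0.187 and 0.325 CPM at 2 weeks and 5.98 and 4.53 CPM in mock. It fell in midbrain by 2.71 and 2.31 on the log2 scale (adjusted p = 2.35e-04 and 5.56e-04). In cortex it was lower by a ratio of 57.3 (95% interval 10.1 to 2277) at 4 weeks and of 20.6 (95% interval 6.92 to 101) at 2 weeks. The midbrain calls of Col12a1 did not pass with the length offset (-1.903, adjusted p = 0.12) at 4 weeks, nor with the length offset (-1.41, adjusted p = 0.227) at 2 weeks.

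Type IX collagen, which decorates the fibrils of cartilage, has 3 chains, and the third moved against the others. Col9a1 had 0.276 and 0.536 CPM at 4 weeks, 0.679 and 0.552 CPM at 2 weeks and 4.07 and 4.94 CPM in mock in midbrain. Col9a1 in cortex had 0 and 1.15 CPM at 4 weeks, 0.374 and 0 CPM at 2 weeks and 1.51 and 1.99 CPM in mock. It lay below mock in every shPTB library. Col9a2 had 3.04 and 2.41 CPM at 4 weeks, 2.26 and 1.32 CPM at 2 weeks and 7.32 and 8.35 CPM in mock in midbrain. Col9a2 in cortex had 1.099 and 1.92 CPM at 4 weeks, 0.936 and 2.597 CPM at 2 weeks and 2.44 and 3.98 CPM in mock. In midbrain Col9a2 was below mock in every shPTB library. In cortex the 4-week libraries were below mock, and 2-week library 2 lay within the mock range. Col9a1 fell in midbrain by 3.43 and 2.85 on the log2 scale (edgeR adjusted p = 0.00611 and 0.012), and Col9a2 by 1.52 and 2.12 (adjusted p = 0.0155 and 0.00396). In cortex only Col9a1 at 2 weeks passed, with 2 reads against 51, lower by a ratio of 9.85 (95% interval 2.59 to 83.5) by counting. These calls rest on few reads: Col9a1 did not pass in midbrain at 4 weeks without midbrain 4-week library 1 (adjusted p = 0.0627). It did not pass in midbrain at 2 weeks without midbrain 2-week library 1 (adjusted p = 0.0765) or midbrain 2-week library 2 (adjusted p = 0.0941), nor in cortex at 2 weeks without cortex 2-week library 2 (adjusted p = 0.208) or cortex mock library 2 (adjusted p = 0.0551), or on coding transcripts only (-3.19, adjusted p = 0.0555). Col9a2 did not pass in midbrain at 4 weeks without midbrain 4-week library 1 (adjusted p = 0.0638) or midbrain 4-week library 2 (adjusted p = 0.11), nor at 2 weeks without midbrain 2-week library 2 (adjusted p = 0.0538).

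Col9a3 had 17.1 and 15.3 CPM at 4 weeks, 11.9 and 16.7 CPM at 2 weeks and 3.797 and 2.57 CPM in mock in midbrain. Col9a3 in cortex had 10.3 and 7.88 CPM at 4 weeks, 10.5 and 12.2 CPM at 2 weeks and 2.79 and 1.91 CPM in mock. All shPTB libraries lay above all mock libraries. It rose by 2.34 ± 0.29 and 2.15 ± 0.28 on the log2 scale in midbrain at 4 and 2 weeks and by 1.93 ± 0.31 and 2.25 ± 0.30 in cortex (edgeR adjusted p = 1.18e-04, 2.51e-04, 5.84e-04 and 2.40e-04). The cortex 4-week call did not pass with scaling to total reads (0.81, adjusted p = 0.088). Its exons overlap those of Tcfl5 on the other strand, and no source states whether the counting used strand.

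Col22a1, a chain known from tissue junctions such as that between muscle and tendon, rose most in cortex. It had 29.3 and 26.9 CPM at 4 weeks, 22.9 and 17.2 CPM at 2 weeks and 12.8 and 8.28 CPM in mock in midbrain. Col22a1 in cortex had 56.8 and 63.2 CPM at 4 weeks, 10.3 and 11.8 CPM at 2 weeks and 1.74 and 1.51 CPM in mock. In cortex every 4-week library was above every 2-week library and these above mock. The log2 fold change was 5.19 ± 0.28, adjusted p = 5.22e-07 at 4 weeks and 2.75 ± 0.28, adjusted p = 3.89e-05 at 2 weeks in cortex (edgeR). In midbrain it was 1.41 ± 0.23, adjusted p = 8.75e-04 and 0.92 ± 0.23, adjusted p = 0.0122. The midbrain direction depended on the processing: at 4 weeks it did not pass with scaling to total reads (0.51, adjusted p = 0.147) and with the length offset (-0.22, adjusted p = 0.819). At 2 weeks it did not pass without midbrain 2-week library 1 (adjusted p = 0.121) or midbrain mock library 2 (adjusted p = 0.0501), or with scaling to total reads (0.23, adjusted p = 0.534), with the length offset (-0.34, adjusted p = 0.734) and with only the compared groups in the fit (0.92, adjusted p = 0.0752). The cortex 2-week call did not pass with the length offset (1.42, adjusted p = 0.207). Its exons overlap Gm16308, so that reads of the pair cannot be told apart without strand.

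Col16a1, which associates with fibrils and microfibrils, fell in midbrain and rose in cortex. It had 15.8 and 14.6 CPM at 4 weeks, 16.4 and 17.5 CPM at 2 weeks and 22.9 and 38.5 CPM in mock in midbrain. Col16a1 in cortex had 22.2 and 19.02 CPM at 4 weeks, 25.8 and 29.2 CPM at 2 weeks and 9.12 and 11.9 CPM in mock. The groups did not overlap in either region. The log2 fold change was -1.01 ± 0.25, adjusted p = 0.00872 and -0.85 ± 0.25, adjusted p = 0.0235 in midbrain at 4 and 2 weeks (edgeR). The cortex values were 0.98 ± 0.26, adjusted p = 0.0114 and 1.396 ± 0.26, adjusted p = 0.00175. Of its reads 99.2% were given to a non-coding transcript of 833 bases and 0.11% to coding transcripts. These were too few for a test on coding transcripts only. The midbrain 4-week call did not pass without midbrain 4-week library 2 (adjusted p = 0.068) or midbrain mock library 2 (adjusted p = 0.0527), or with only the compared groups in the fit (-1.02, adjusted p = 0.0509). The midbrain 2-week call was lost without midbrain 2-week library 1 (adjusted p = 0.133), midbrain 2-week library 2 (adjusted p = 0.098) or midbrain mock library 2 (adjusted p = 0.149), or with only the compared groups in the fit (-0.85, adjusted p = 0.088). In cortex the 4-week call was lost without cortex 4-week library 1 (adjusted p = 0.0797) or cortex mock library 1 (adjusted p = 0.0632), or with scaling to total reads (-0.09, adjusted p = 0.723) and with the length offset (-0.37, adjusted p = 0.315). The cortex 2-week call was lost with the length offset (0.34, adjusted p = 0.361). The last fibril-associated chain tested, Col20a1, had at most 1.08 CPM in any library and passed in no comparison with mock.

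The 2 short-chain genes tested, Col8a1 and Col8a2, encode the hexagonal network of type VIII, known from vessel walls and from the membrane under the corneal endothelium, and both fell. Col8a1 had 1.38 and 1.07 CPM at 4 weeks, 1.47 and 1.43 CPM at 2 weeks and 31.4 and 13.5 CPM in mock in midbrain. Col8a1 in cortex had 1.28 and 0.769 CPM at 4 weeks, 0.749 and 0.811 CPM at 2 weeks and 9.99 and 4.22 CPM in mock. Every shPTB library lay below every mock library. It changed by -4.18 ± 0.54 and -3.94 ± 0.51 in midbrain and by -2.78 ± 0.60 and -3.18 ± 0.62 in cortex (log2, edgeR adjusted p = 1.68e-04, 2.31e-04, 0.00368 and 0.00248). Col8a2 had 0.414 and 0.536 CPM at 4 weeks, 0 and 0.1104 CPM at 2 weeks and 2.604 and 3.98 CPM in mock in midbrain. Col8a2 in cortex had 0 and 0 CPM at 4 weeks, 0 and 0 CPM at 2 weeks and 1.74 and 1.35 CPM in mock. It fell in midbrain at 4 weeks (-2.76 ± 0.61, adjusted p = 0.00673), and was lower at 2 weeks by a ratio of 57.9 (95% interval 10.2 to 2307) by counting. In cortex, with 0 reads in either shPTB group, it was at least 5.61-fold lower at 4 weeks and at least 6.05-fold lower at 2 weeks. The midbrain 4-week call did not pass without midbrain 4-week library 1 (adjusted p = 0.0585).

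The multiplexins, whose C-terminal fragments can be released from basement membranes, were set apart by region. Col15a1 had 7.46 and 9.24 CPM at 4 weeks, 13.2 and 13.9 CPM at 2 weeks and 2.28 and 3.15 CPM in mock in midbrain and at most 0.636 CPM in any cortex library. It rose in midbrain, by 1.62 ± 0.35, adjusted p = 0.00443 at 4 weeks and 2.32 ± 0.35, adjusted p = 5.91e-04 at 2 weeks (log2, edgeR). The 4-week call did not pass with scaling to total reads (0.77, adjusted p = 0.102) and with the length offset (0.95, adjusted p = 0.0839). In cortex it passed in neither comparison. Col18a1, the source of endostatin, had 8.43 and 6.96 CPM at 4 weeks, 10.1 and 14.1 CPM at 2 weeks and 10.7 and 9.63 CPM in mock in midbrain. Col18a1 in cortex had 2.56 and 1.54 CPM at 4 weeks, 4.68 and 5.36 CPM at 2 weeks and 5.69 and 4.296 CPM in mock. It fell only in cortex at 4 weeks (-1.28 ± 0.33, adjusted p = 0.0104). That call did not pass without cortex 4-week library 2 (adjusted p = 0.0995) or cortex mock library 1 (adjusted p = 0.054), or with only the compared groups in the fit (-1.32, adjusted p = 0.0586).

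Of the transmembrane collagens, Col25a1, known from neurons, rose in both regions, and the mock cultures had no read of it. It had 4 reads in the midbrain 4-week group, 12 in the midbrain 2-week group, 15 in the cortex 4-week group and 12 in the cortex 2-week group, and 0 in either mock group. Against 3 reads over the mock group it was 3.08-fold, 7.600-fold, 13.96-fold and 10.4-fold higher (edgeR adjusted p = 0.0346, 0.00778, 0.00224 and 0.00441). These folds leave out the counting error of its own few reads and are not lower limits. Its highest level was 1.65 CPM. The midbrain 4-week call did not pass without either midbrain 4-week library, either midbrain mock library, cortex 4-week library 1, mock library 1 of both regions or mock library 2 of both regions, left out one at a time (adjusted p = 0.0502 to 0.193), or with the length offset (4.31, adjusted p = 0.106) and with only the compared groups in the fit (4.78, adjusted p = 0.116). The midbrain 2-week call did not pass without midbrain 2-week library 2 (adjusted p = 0.0535). Col23a1 had 6.77 and 7.097 CPM at 4 weeks, 6.903 and 8.497 CPM at 2 weeks and 6.89 and 6.997 CPM in mock in midbrain. Col23a1 in cortex had 1.099 and 0.576 CPM at 4 weeks, 2.995 and 2.76 CPM at 2 weeks and 2.03 and 1.59 CPM in mock, and passed only in cortex at 4 weeks (-1.104 ± 0.39, adjusted p = 0.045). That call did not pass without any 1 of the 8 shPTB libraries, either midbrain mock library, cortex mock library 1 or mock library 1 of both regions, left out one at a time (adjusted p = 0.0513 to 0.338), or without the count filter (-1.17, adjusted p = 0.1), with the replicate block (-1.105, adjusted p = 0.0527), on coding transcripts only (-1.08, adjusted p = 0.051), with only the compared groups in the fit (-1.15, adjusted p = 0.212) and by DESeq2 (-1.13, adjusted p = 0.151).

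The remaining chains tested were Col26a1 and Col7a1. Col26a1, first described in testis and ovary, had 26.9 and 28.3 CPM at 4 weeks, 30.7 and 28.2 CPM at 2 weeks and 32.8 and 25.2 CPM in mock in midbrain. Col26a1 in cortex had 5.13 and 5.19 CPM at 4 weeks, 9.55 and 12.2 CPM at 2 weeks and 13.1 and 13.5 CPM in mock. The midbrain groups overlapped, and the log2 fold changes there were -0.07 and 0.02. In cortex it fell at 4 weeks (-1.37 ± 0.22, adjusted p = 6.37e-04, edgeR) and did not pass at 2 weeks (-0.29 ± 0.20, adjusted p = 0.288). Col7a1, the anchoring fibril chain of skin, had at most 1.77 CPM and passed only in cortex at 2 weeks, with 2 reads against 43, lower by a ratio of 8.31 (95% interval 2.16 to 70.8) by counting. That call did not pass without cortex 2-week library 1 (adjusted p = 0.116) or cortex mock library 1 (adjusted p = 0.0618), or with the length offset (-3.13, adjusted p = 0.143) and with only the compared groups in the fit (-2.98, adjusted p = 0.0657).

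**Figure D4:**
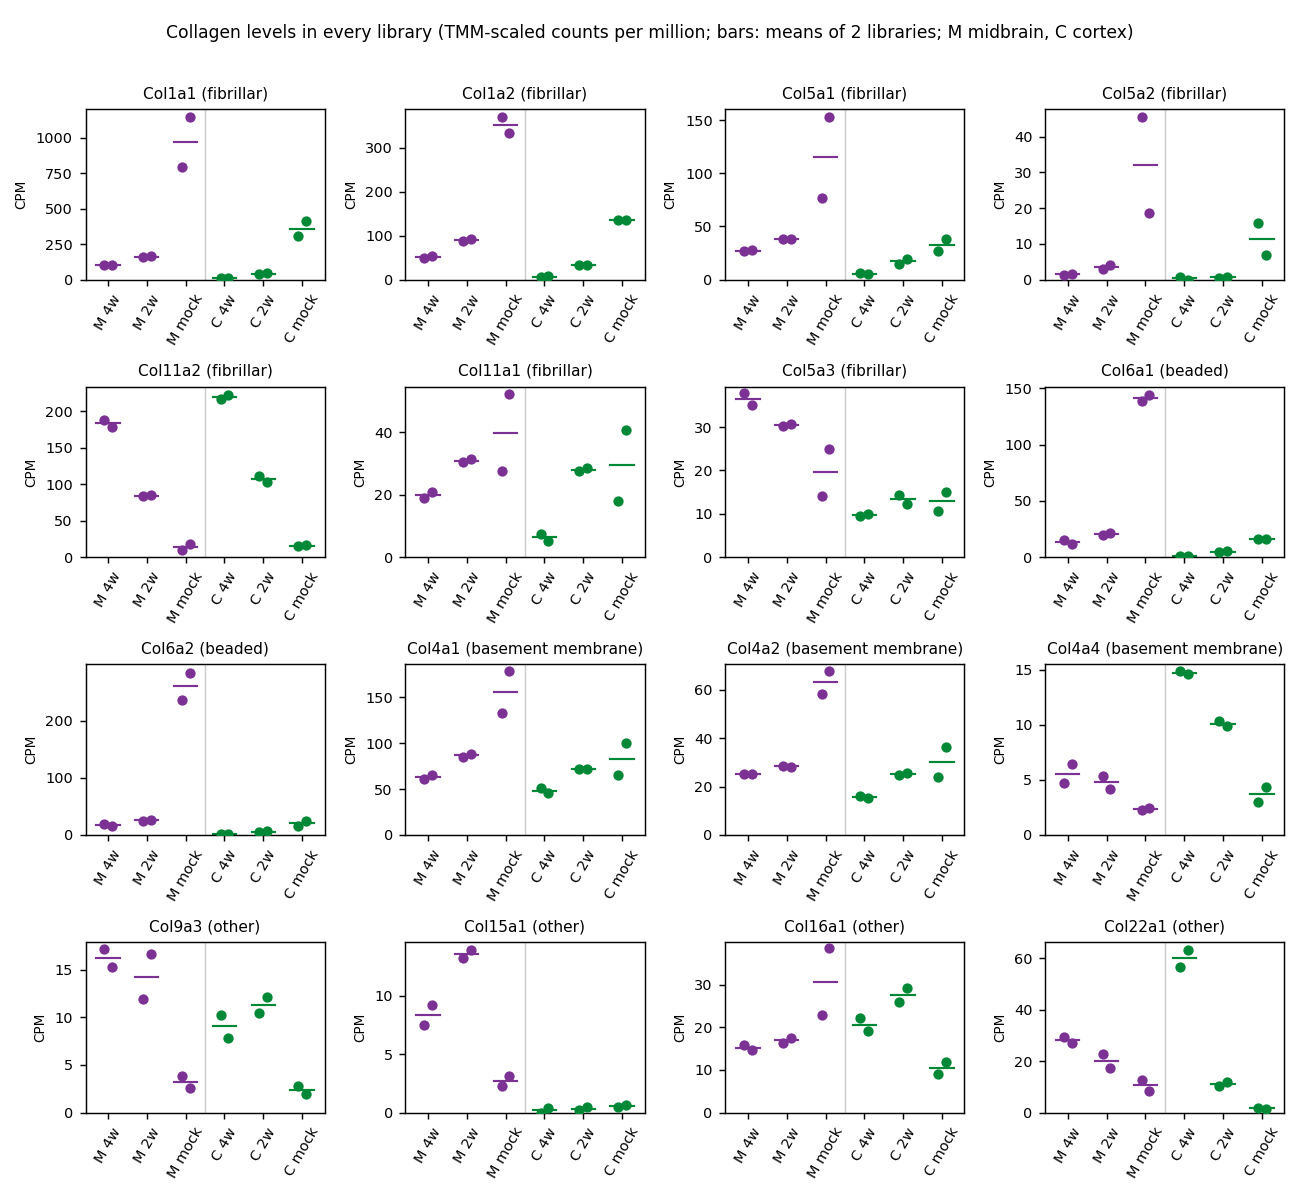
CPM of 16 collagen genes in every library (points) with the mean of the 2 libraries of a group (bars), midbrain groups in purple and cortex groups in green, each panel on its own linear axis from 0. In the panels of Col1a1, Col1a2, Col6a1 and Col6a2 the mock points stand above the shPTB points of their region, and in that of Col11a2 the order is reversed, up to 223 CPM in cortex at 4 weeks.

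Between the times, 2 collagen genes passed in midbrain and 10 in cortex, and the difference between these counts was not tested. In midbrain 1 of 35 was higher at 4 weeks than at 2 weeks, beside 0.958% of all genes tested, and 1 lower, beside 1.7%. Col11a2 was the higher one (188 and 178 CPM at 4 weeks and 83.3 and 84.97 CPM at 2 weeks, log2 difference 1.12 ± 0.23, adjusted p = 0.032, edgeR) and Col1a2 the lower (48.9 and 53.3 CPM at 4 weeks and 88.3 and 92.6 CPM at 2 weeks, -0.82 ± 0.17, adjusted p = 0.0328). In cortex 2 were higher, beside 0.548%, and 8 lower, beside 2.22%. The higher ones were Col22a1 (2.43 ± 0.25, adjusted p = 6.11e-04) and Col11a2 (1.03 ± 0.23, adjusted p = 0.044). The lower ones were Col1a1 (-1.92 ± 0.26, adjusted p = 0.00326), Col1a2 (-2.35 ± 0.20, adjusted p = 2.97e-04), Col5a1 (-1.65 ± 0.36, adjusted p = 0.0352), Col6a1 (-2.15 ± 0.30, adjusted p = 0.00408), Col6a2 (-1.94 ± 0.34, adjusted p = 0.0135), Col11a1 (-2.13 ± 0.42, adjusted p = 0.0241), Col23a1 (-1.75 ± 0.40, adjusted p = 0.0424) and Col26a1 (-1.08 ± 0.23, adjusted p = 0.0338). In all 10 of these cortex differences the 2 libraries of 1 time lay on the same side of both libraries of the other. These genes were picked by the test, so this adds no support to it.

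In cortex the time call of Col1a2 passed in every alternative, that of Col1a1 did not pass without cortex 4-week library 1 (adjusted p = 0.0871), and that of Col22a1 did not pass with the length offset (1.84, adjusted p = 0.242). The other 7 cortex calls were lost in 2 to 12 of 23 alternatives each. With any 1 of the 8 shPTB libraries left out, the midbrain count in edgeR was 0, with 3 to 8 genes at an unadjusted p under 0.05, each mock pair left out gave 13, and only the compared groups in the fit gave 12. In cortex the count of 10 was 2 and 3 without 4-week libraries 1 and 2, 4 without either 2-week library, 6 without any 1 midbrain shPTB library, and 16 without a mock pair. The Col11a2 time call did not pass without any 1 of the 8 shPTB libraries, left out one at a time (adjusted p = 0.0654 to 0.241), or on coding transcripts only (1.11, adjusted p = 0.0518) in midbrain. In cortex it did not pass without any 1 of the 8 shPTB libraries, left out one at a time (adjusted p = 0.087 to 0.29), or with RLE size factors (1.03, adjusted p = 0.0517), with scaling to total reads (0.68, adjusted p = 0.0679), with the length offset (0.66, adjusted p = 0.108) and on coding transcripts only (1.02, adjusted p = 0.0615).

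Midbrain cultures had a higher summed collagen level than cortex cultures in every state. In mock, 11 of 35 collagen genes were higher in midbrain, beside 1.25% of all genes tested, and 0 lower, beside 0.938%. At 2 weeks 10 were higher, beside 2.01%, and 0 lower, beside 0.931%. At an unadjusted p under 0.05 in edgeR, 1 was lower in mock and 2 at 2 weeks, and DESeq2 called 0 lower in both. At 4 weeks 13 were higher, beside 5.48%, and 2 lower, beside 2.51%. In mock the largest differences were those of the type VI chains: Col6a2 had 237 and 285 CPM in midbrain and 16.3 and 24.1 CPM in cortex (3.69 ± 0.23, adjusted p = 2.45e-05, edgeR), and Col6a1 had 138 and 144 CPM in midbrain and 16.6 and 15.9 CPM in cortex (3.12 ± 0.19, adjusted p = 2.45e-05). Col22a1 had 12.8 and 8.28 CPM in midbrain and 1.74 and 1.51 CPM in cortex mock (2.68 ± 0.27, adjusted p = 3.19e-04). The type I chains differed by 1.43 ± 0.23, adjusted p = 0.00827 for Col1a1 and 1.37 ± 0.17, adjusted p = 0.00139 for Col1a2. No library of 1 region overlapped the other for these 5 genes, which were picked from those called. With only the 2 mock groups in the fit none of the 11 calls passed, with adjusted p = 0.0921 for Col6a1 and Col6a2, 0.159 for Col22a1, 0.755 for Col1a1 and 0.561 for Col1a2 (edgeR), and 18 collagen genes were higher at an unadjusted p under 0.05.

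At 4 weeks the type VI chains still differed, Col6a1 by 3.598 ± 0.27, adjusted p = 3.04e-05 and Col6a2 by 3.54 ± 0.31, adjusted p = 8.27e-05. Col15a1 had 7.46 and 9.24 CPM in midbrain and 0 and 0.384 CPM in cortex, higher by a ratio of 44.6 (95% interval 12.1 to 372) by counting. The 2 genes lower in midbrain at 4 weeks were Col22a1 (-1.09 ± 0.23, adjusted p = 0.014) and Col4a4 (-1.401 ± 0.26, adjusted p = 0.00734). The Col22a1 call did not pass without either midbrain 4-week or cortex 4-week library, left out one at a time (adjusted p = 0.0671 to 0.127), or with scaling to total reads (-0.83, adjusted p = 0.11) and with the length offset (-0.91, adjusted p = 0.552). That of Col4a4 did not pass without midbrain 4-week library 1 (adjusted p = 0.0942), cortex 4-week library 1 (adjusted p = 0.057) or cortex 4-week library 2 (adjusted p = 0.052). In mock the Col22a1 values were higher in midbrain, a call that did not pass with the length offset (2.57, adjusted p = 0.292) and with only the compared groups in the fit (2.69, adjusted p = 0.159). The mock count was 17 and 19 without a mock pair and 10 to 12 without any 1 library. The 2-week count was 5 or 6 without any 1 of 6 shPTB libraries (both midbrain groups and the cortex 2-week group) and 19 and 20 without a mock pair. The 4-week count was 9 without cortex 4-week library 2 and 23 without the second mock pair.

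The difference between the regions' responses to the treatment was tested directly, as the change in midbrain minus the change in cortex. At 4 weeks 3 of 35 collagen genes had a positive difference, beside 1.9% of all genes tested, and 2 a negative one, beside 0.644%. At 2 weeks 0 had a positive difference, beside 0.424%, and 1 a negative one, beside 0.26%. At an unadjusted p under 0.05 in edgeR 3 were positive at 2 weeks, and DESeq2 called 0. Col1a1 and Col1a2 fell less in midbrain at 4 weeks, by 1.84 ± 0.34 (adjusted p = 0.0162) and 1.56 ± 0.26 (adjusted p = 0.0083) on the log2 scale in edgeR. Col26a1 also had a positive difference, 1.30 ± 0.29 (adjusted p = 0.0411), lower in cortex and near mock in midbrain. Col22a1 rose more in cortex, with a difference of -3.78 ± 0.36 (adjusted p = 3.29e-04). Col16a1 had opposite directions in the regions, with differences of -1.99 ± 0.36 (adjusted p = 0.0140) at 4 weeks and -2.25 ± 0.36 (adjusted p = 0.0158) at 2 weeks. Beside these, the 10 fibroblast and meningeal markers had 2 positive differences at 4 weeks and 1 at 2 weeks, and the part of such cells was not tested. The difference of Col1a1 did not pass without either midbrain 4-week or cortex 4-week library, left out one at a time (adjusted p = 0.0712 to 0.122), or with only the compared groups in the fit (1.87, adjusted p = 0.0788). That of Col1a2 did not pass without midbrain 4-week library 2 (adjusted p = 0.0561) or cortex 4-week library 1 (adjusted p = 0.0801), or with only the compared groups in the fit (1.599, adjusted p = 0.0676). That of Col22a1 did not pass with the length offset (-3.48, adjusted p = 0.189). That of Col26a1 did not pass without any 1 of the 8 shPTB libraries, midbrain mock library 2 or cortex mock library 2, left out one at a time (adjusted p = 0.0546 to 0.181), or with the length offset (1.38, adjusted p = 0.145) and with only the compared groups in the fit (1.34, adjusted p = 0.12). At 4 weeks that of Col16a1 did not pass without midbrain 4-week library 1 (adjusted p = 0.0673), midbrain 4-week library 2 (adjusted p = 0.0826) or cortex 4-week library 1 (adjusted p = 0.0854), or with only the compared groups in the fit (-1.95, adjusted p = 0.0796). Its 2-week difference was lost without either midbrain 2-week or cortex 2-week library, left out one at a time (adjusted p = 0.0765 to 0.119), or with the length offset (-2.16, adjusted p = 0.0617) and with only the compared groups in the fit (-2.24, adjusted p = 0.125).

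**Figure D5:**
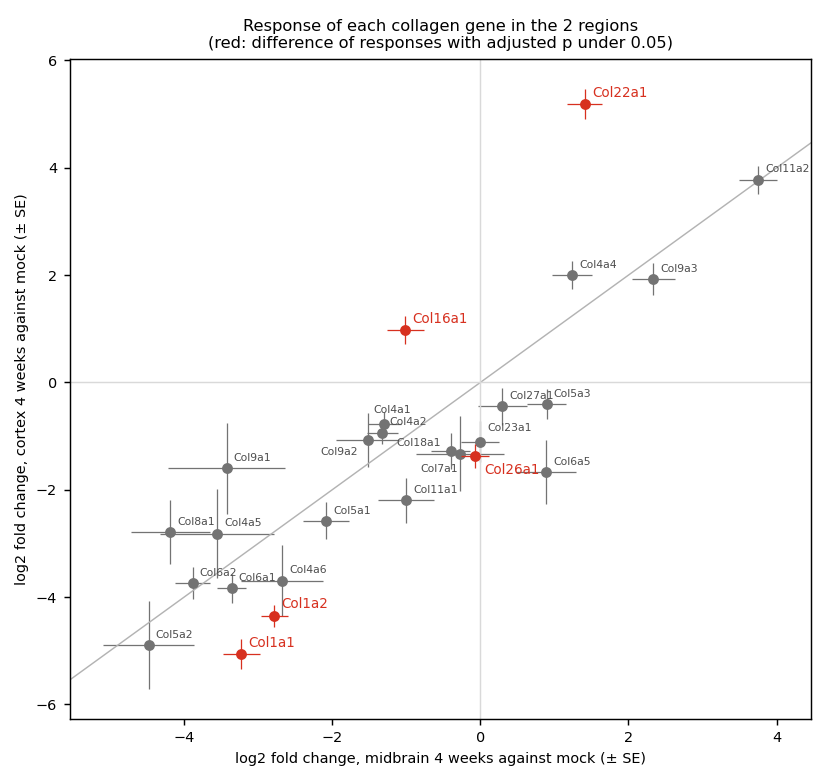
Log2 fold change (± SE) of 26 collagen genes at 4 weeks against mock in midbrain (x axis) and cortex (y axis), with the line of equal change. Points in red had a difference of responses with adjusted p under 0.05: Col1a1 and Col1a2 lie below the line, Col26a1 below it near 0 on the x axis, and Col22a1 and Col16a1 above it.

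Among genes of collagen synthesis most calls were decreases. Of 22 tested genes of collagen synthesis (prolyl and lysyl hydroxylases, chaperones and exporters), 11 fell in midbrain at 4 weeks and 6 at 2 weeks, with 0 higher, and 16 and 12 fell in cortex, with 1 higher at each time. Of all genes tested 20.4 and 14.7% fell in midbrain at 4 and 2 weeks and 20.9 and 17.6% in cortex, beside 50, 27.3, 72.7 and 54.5% of this list. The shares higher in this list were 0% in midbrain at each time and 4.55% in cortex at each time. Among all genes 18.7 and 15.9% were higher in midbrain and 18.5 and 17.5% in cortex. In midbrain 0 of the list were higher also at an unadjusted p under 0.05 in edgeR and by DESeq2. In cortex DESeq2 called 0 higher at both times. The list's median log2 fold change was -0.99 and -0.77 in midbrain and -1.63 and -0.90 in cortex, beside -0.15, -0.07, -0.12 and -0.11 for all genes. Plod2, a lysyl hydroxylase, fell in midbrain to 0.829 and 0.937 CPM at 4 weeks and 2.72 and 2.21 CPM at 2 weeks, against 11.4 and 11.3 CPM in mock (-3.67 ± 0.42, adjusted p = 7.12e-05 and -2.203 ± 0.36, adjusted p = 9.09e-04, edgeR). Serpinh1, the collagen chaperone HSP47, fell to 3.18 and 2.54 CPM in midbrain at 4 weeks, against 20.2 and 14.1 CPM in mock (-2.58 ± 0.34, adjusted p = 2.03e-04). In cortex at 4 weeks Sparc, a secreted collagen-binding protein, fell to 146 and 149 CPM, against 1751 and 2004 CPM in mock (-3.67 ± 0.20, adjusted p = 5.17e-07). Sparc fell further in cortex than in midbrain at 4 weeks, with a difference of responses of 1.88 ± 0.25, adjusted p = 0.00285. No listed gene of this group rose in midbrain.

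Of 8 tested genes of procollagen processing and crosslinking, 3 fell in midbrain at each time, with 1 and 0 higher at 4 and 2 weeks, and 5 and 3 fell in cortex, with 1 higher at each time. These are 37.5% lower in midbrain at each time and 62.5 and 37.5% in cortex, beside the 20.4, 14.7, 20.9 and 17.6% of all genes. The shares higher were 12.5, 0, 12.5 and 12.5%, beside 18.7, 15.9, 18.5 and 17.5% of all genes. Lox, the lysyl oxidase that crosslinks fibrils, fell in both regions. It had 3.18 and 5.62 CPM at 4 weeks, 6.903 and 7.95 CPM at 2 weeks and 26.9 and 33.4 CPM in mock midbrain libraries (-2.77 ± 0.37, adjusted p = 2.15e-04 and -2.02 ± 0.35, adjusted p = 0.0014, edgeR). In cortex at 4 weeks 2 reads stood against 222 in mock, lower by a ratio of 39.7 (95% interval 10.9 to 330.2) by counting. Loxl1, a related oxidase, rose in cortex at 2 weeks (1.71 ± 0.16, adjusted p = 2.56e-05), and the difference of responses was negative at both times (-1.06 ± 0.22, adjusted p = 0.0328 at 4 weeks and -1.47 ± 0.22, adjusted p = 0.0141 at 2 weeks).

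Of 10 tested collagen receptors, 6 and 4 fell in midbrain at 4 and 2 weeks and 6 and 4 in cortex, with 0 higher in any. The shares lower, 60, 40, 60 and 40%, stand beside 20.4, 14.7, 20.9 and 17.6% of all genes, and the share higher of all genes was 15.9 to 18.7%. At an unadjusted p under 0.05 in edgeR 1 receptor was higher, in cortex at 4 weeks, and DESeq2 called 0 higher. Itga1, the alpha chain of a collagen-binding integrin, had 1.47 and 2.498 CPM at 4 weeks, 4.87 and 6.17 CPM at 2 weeks and 24.8 and 14.1 CPM in mock cortex libraries (-3.296 ± 0.39, adjusted p = 8.18e-05 and -1.81 ± 0.34, adjusted p = 0.00195, edgeR). Itga2, its relative, was lower by a ratio of 30.5 (95% interval 8.28 to 254) in midbrain at 4 weeks, from 2 reads against 141.

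Of 11 tested genes of collagen breakdown and its inhibitors, 4 rose and 2 fell in midbrain at each time, while in cortex 3 rose and 6 fell at 4 weeks and 3 rose and 3 fell at 2 weeks. The shares higher were 36.4, 36.4, 27.3 and 27.3%, beside 18.7, 15.9, 18.5 and 17.5% of all genes. The shares lower were 18.2, 18.2, 54.5 and 27.3%, beside 20.4, 14.7, 20.9 and 17.6%, so that in midbrain the share lower was close to that of all genes. Mmp9, a gelatinase that cuts type IV and denatured collagen, had 11 reads at 4 weeks and 126 at 2 weeks in midbrain, against 0 in mock. Against 3 reads over the mock group it was 8.48-fold and 79.8-fold higher, leaving out the counting error of its own reads. In cortex it was higher by a ratio of 15.8 (95% interval 4.58 to 84.3) at 4 weeks and of 89.7 (95% interval 29.9 to 442) at 2 weeks, by counting. It was lower at 4 weeks than at 2 weeks in both regions (-3.21 ± 0.48, adjusted p = 0.0117 in midbrain and -2.504 ± 0.45, adjusted p = 0.0187 in cortex, edgeR). Ctsk, a collagen-cutting cysteine protease, rose in midbrain by a ratio of 19.7 (95% interval 4.67 to 175) at 4 weeks and 33.3 (95% interval 8.54 to 285) at 2 weeks and fell in cortex at 4 weeks by a ratio of 22.6 (95% interval 3.904 to 905). Timp4, a metalloprotease inhibitor, rose in cortex at 2 weeks to 98.1 and 99.5 CPM, against 7.15 and 12.2 CPM in mock (3.36 ± 0.26, adjusted p = 6.14e-06).

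Sequence shared with other genes was looked for in the last 500 bases of each gene's longest transcript. There 42 of the 44 collagen genes shared no word of 31 bases with another gene. Col5a1 and Col8a2 shared 5.32 and 0.213% of theirs. The ends of other transcripts were not searched, and reads that could belong to another gene were not counted. Overlapping exons are a further limit, since the use of strand is not stated, and reads on them were not counted. Among the tested genes, besides those named above, Col4a1 and Col4a2 overlap each other and Col4a2 also overlaps Gm15419. Col3a1 overlaps Gm47302, Col5a1 overlaps 2810430I11Rik and Gm13372, Col15a1 overlaps Gm12426, Col7a1 overlaps Mir711 and Col20a1 overlaps BX649560.1. The share of a gene's reads given to coding transcripts was 67.8% for Col11a1, 63.7% for Col12a1, 42.0% for Col4a1, 37.6% for Col25a1 and 0.11% for Col16a1.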

How the data were processed

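RNA of 12 mouse astrocyte libraries, 2 in each of 6 groups, was analysed. Per the labels' protocols, cDNA was primed with a biotinylated primer, captured on streptavidin and copied from random primers, so reads lie towards 3′ ends, and no molecular identifiers are described. In the submitters' processing notes Salmon 0.14.1, cutadapt 2.3, DESeq2 and build mm10 are named. No source used here names the annotation release. The authors' Salmon runs gave the deposited estimated counts of each transcript, which are not normalized between libraries, and the deposited TPM values, which are scaled by effective length within a library.

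Here estimated counts were summed per gene with GENCODE M21 and rounded. Genes were kept by filterByExpr (count minimum 10, total minimum 15), which left 14607. The quasi-likelihood test of edgeR 4.0.16 (R 4.3.3) was fitted to the 6 groups after TMM scaling, with a spread shared by all groups (common dispersion 0.0550, residual degrees of freedom 6) and 11 contrasts. The Benjamini-Hochberg method adjusted p-values over all genes of a contrast, with a threshold of 0.05. Standard errors were derived as the absolute log2 fold change divided by the square root of the quasi-likelihood F statistic. They are approximate, most of all for genes of few reads. A count of 3 reads corresponds to 0.331 to 0.576 CPM in shPTB libraries and 0.163 to 0.239 CPM in mock libraries. A group at 0 reads was set to 3 reads in all to give the bound of a fold, which leaves out the counting error of the other group. For a group of 1 to 3 reads the ratio of counts has an exact 95% interval, which covers counting error only. TPM was used to set chains side by side within a library.

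The members, the gene lists and the tests were chosen with earlier results of these data known. Named were members called in a comparison with mock or in a difference of responses, the other chains by class, and some called genes of the lists. The plan was to name the 2 list genes with the largest called change per list and comparison, and not all of these are given. Alternatives were RLE size factors, scaling to total reads, no count filter, a stricter filter (5 CPM in 2 libraries), an offset for transcript length, the replicate number as a block, coding transcripts only, only the compared groups in the fit, each of 12 libraries or a mock pair left out, and DESeq2 1.42.0. Coding transcripts only and the scalings of the summed level were added after the data were seen. The test was also run on data simulated with the same spread in all groups, so the wider spread of mock was not checked.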

Additional observations from a re-analysis of the deposited data

Results flagged for a closer look

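The responses of the regions differed in 5 collagen genes by the test of the difference itself (edgeR, midbrain change minus cortex change, log2). At 4 weeks the differences were 1.84 for Col1a1, 1.56 for Col1a2, 1.30 for Col26a1, -1.99 for Col16a1 and -3.78 for Col22a1. At 2 weeks the difference was -2.25 for Col16a1. The type I chains had fallen in both regions and further in cortex, Col22a1 had risen in both and further in cortex, and Col16a1 had fallen in midbrain and risen in cortex. Groups of 2 libraries are too small to be searched for single outlying libraries.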

How the results depend on the processing

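Of 97 calls of collagen genes against mock, 59 passed in each of the 21 to 23 alternatives run for them and 38 failed in 1 or more. Every call passed for 11 genes: Col1a1, Col1a2, Col4a2, Col5a2, Col6a1, Col6a2, Col8a1, Col11a1, Col11a2, Col14a1 and Col26a1. The replicate block changed 1 of these calls, Col23a1 in cortex at 4 weeks (adjusted p = 0.0527). No label says that a number marks a shared animal or day. Same-numbered mock libraries of the 2 regions deviated together (r = 0.807), those of the other 14 pairs of groups did not (r of -0.0192 to 0.0474). With the block the mock region calls were 13 (11 without) and those of the differences of responses 2 at 2 weeks (1 without) and 5 at 4 weeks (5 without). The direction turned with the length offset for Col4a1 in cortex at 4 weeks (0.24), Col5a3 in midbrain at 4 weeks (-0.054), Col16a1 in cortex at 4 weeks (-0.37) and Col22a1 in midbrain (-0.22 at 4 weeks and -0.34 at 2 weeks), and with scaling to total reads for Col16a1 in cortex at 4 weeks (-0.087). The cause was not tested.

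Scaling to total reads moved the share of higher calls among all called genes from 47.8 to 13.1% and from 51.8 to 17.1% in midbrain at 4 and 2 weeks, and from 47.0 to 9.28% and from 49.8 to 16.5% in cortex. The log2 ratio of summed collagen in shPTB over mock was then -2.649 and -2.31 in midbrain and -1.98 and -1.64 in cortex, and with deposited TPM -2.87, -2.49, -2.12 and -1.33, against -1.79, -1.66, -0.91 and -0.92 with TMM.

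Counts of collagen genes called against mock stayed within 1.5 times under each planned setting. Leaving out 1 library gave 19 to 26 and 16 to 25 in midbrain at 4 and 2 weeks (25 and 24 with all), and 21 to 26 and 17 to 21 in cortex (27 and 21). The 2 calls of midbrain 4 against 2 weeks became 5 with total reads, 1 with the length offset, 1 on coding transcripts, 12 with only the compared groups, 13 without either mock pair and 0 to 2 without 1 library. The 10 calls of cortex 4 against 2 weeks became 16 without either mock pair and 2 to 12 without 1 library. Between mock regions, 11 became 17 without the count filter, 0 with only the compared groups (edgeR, n = 2 each, 18 at an unadjusted p under 0.05), 17 and 19 without a mock pair and 10 to 12 without 1 library. At 2 weeks 10 became 6 with the length offset, 20 with only the compared groups, 19 and 20 without a mock pair and 5 to 12 without 1 library. At 4 weeks 15 became 23 without the second mock pair and 9 to 16 without 1 library. For the difference of responses at 2 weeks 1 became 2 with RLE, total reads or the replicate block, 4 without the filter, 3 with the strict filter or DESeq2, 0 with the length offset, coding transcripts or only the compared groups, 9 without either mock pair and 0 to 3 without 1 library. At 4 weeks 5 became 8 without the filter, 3 with the length offset, 1 with only the compared groups, 9 and 12 without a mock pair and 1 to 5 without 1 library.

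Over all genes, scaling to total reads gave 6833 calls against 4470 in midbrain at 2 weeks, 9201 against 5753 in cortex at 4 weeks and 933 against 405 in cortex 4 against 2 weeks. Without the count filter midbrain 4 against 2 weeks had 860 calls against 388, cortex 4 against 2 weeks 793 against 405, the mock regions 556 against 320, the 2-week regions 826 against 430, and the differences of responses 318 against 100 at 2 weeks and 754 against 372 at 4 weeks. With only the compared groups in the fit these became 3622, 2649, 0 (672 at an unadjusted p under 0.05), 3082, 34 and 162, the 4-week regions 3338 against 1167, and cortex at 2 weeks 3378 against 5117. The length offset gave 186 for the mock regions, coding transcripts 212 for midbrain 4 against 2 weeks and 207 for the mock regions, and DESeq2 168 for the difference at 2 weeks. Without 1 library, the counts against mock were 3415 to 6542 and 2450 to 5439 in midbrain at 4 and 2 weeks (5721 and 4470 with all) and 3754 to 6481 and 3023 to 5959 in cortex (5753 and 5117).

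Depth and 2 libraries a group limit the low chains: 9 collagen genes could not be tested.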
